A study of Homo sapiens with 6 samples.

Results

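The genes described here build the autophagosome and the lysosome. A list of 53 genes was matched by symbol to the probesets that the array's annotation assigns to a single gene, and all 53 were measured, among 18404 genes in all. Of these, 32 belong to autophagy and 21 to the lysosome, and the sets are given apart. The lysosome set includes the transcription factor genes TFEB, TFE3 and MITF. They were measured in PC-3 cells, a permanent line from an androgen-independent human prostate carcinoma, kept in DMEM medium with 10% fetal bovine serum. The vehicle group (3 arrays) received ethanol at 0.1% and the menthol group (3 arrays) received menthol dissolved in the same ethanol, so the solvent is common to both. The question was what menthol does to the expression profile of these cells. Neither the dose of menthol nor the length of treatment is known from the labels. Because a single cell line was used, the values describe that line.

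Autophagy encloses parts of the cytoplasm in a double membrane, the autophagosome, and delivers them to the lysosome for digestion. A kinase complex starts the process, a lipid kinase marks the growing membrane with phosphatidylinositol 3-phosphate, and small ubiquitin-like proteins of the ATG8 family are attached to the membrane lipid and bind the cargo receptors. The lysosome is acidified by a proton pump, the V-ATPase, and digests its content with hydrolases. Transcription factors of the MiT/TFE family, TFEB, TFE3 and MITF, drive many of these genes through a DNA element called CLEAR and can be held in the cytoplasm by the kinase complex mTORC1.

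With menthol, 9 of the 32 autophagy genes were higher and 6 were lower, while 17 did not pass the threshold. Of the 21 lysosome genes, 6 were higher, 1 was lower and 14 did not pass. A gene passed when its adjusted p in limma, a linear model with moderated variances fitted to all genes, was under 0.05. By the same rule 29.1% of all genes passed, 14.6% higher and 14.5% lower, so the background is large. In bulk RNA, fewer cells that express a gene and less RNA of it per cell cannot be told apart. The members together stood at 28.3% higher and 13.2% lower. The autophagy genes stood at 28.1% higher and 18.8% lower, and the lysosome genes at 28.6% and 4.76%. The median log2 fold change was 0.06 over the autophagy genes and 0.10 over the lysosome genes, against 0.03 over all genes. All 22 members that passed had groups that did not overlap. In all, 22 of the 53 members lay wholly higher with menthol and 10 wholly lower. Of the 32 autophagy genes these were 12 and 8, and of the 21 lysosome genes 10 and 2. Over all 18404 genes, 4332 (23.5%) lay wholly higher and 3997 (21.7%) wholly lower.

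The changes were mostly small. The 15 members that rose did so by 1.20-fold to 2.21-fold, with a median of 1.37-fold, and the 7 that fell were 1.25-fold to 1.69-fold lower, with a median of 1.34-fold. The median over all genes that passed was 1.30-fold. At least 1.5-fold changes were seen in 4 members, WIPI1 and CTSS higher and ATG9A and BNIP3 lower, while 5.61% of all genes passed at that size. Signal strength bears on the shares: 32 of the 53 members were among the brightest 4601 genes, where 17.2% of all genes were higher and 26.9% lower. Of the members there, 7 were higher and 4 lower. The 15 lysosome genes among them had 4 higher and 0 lower (0 also at an unadjusted p under 0.05 in limma), and the 17 autophagy genes 3 higher and 4 lower.

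**Figure D1:**
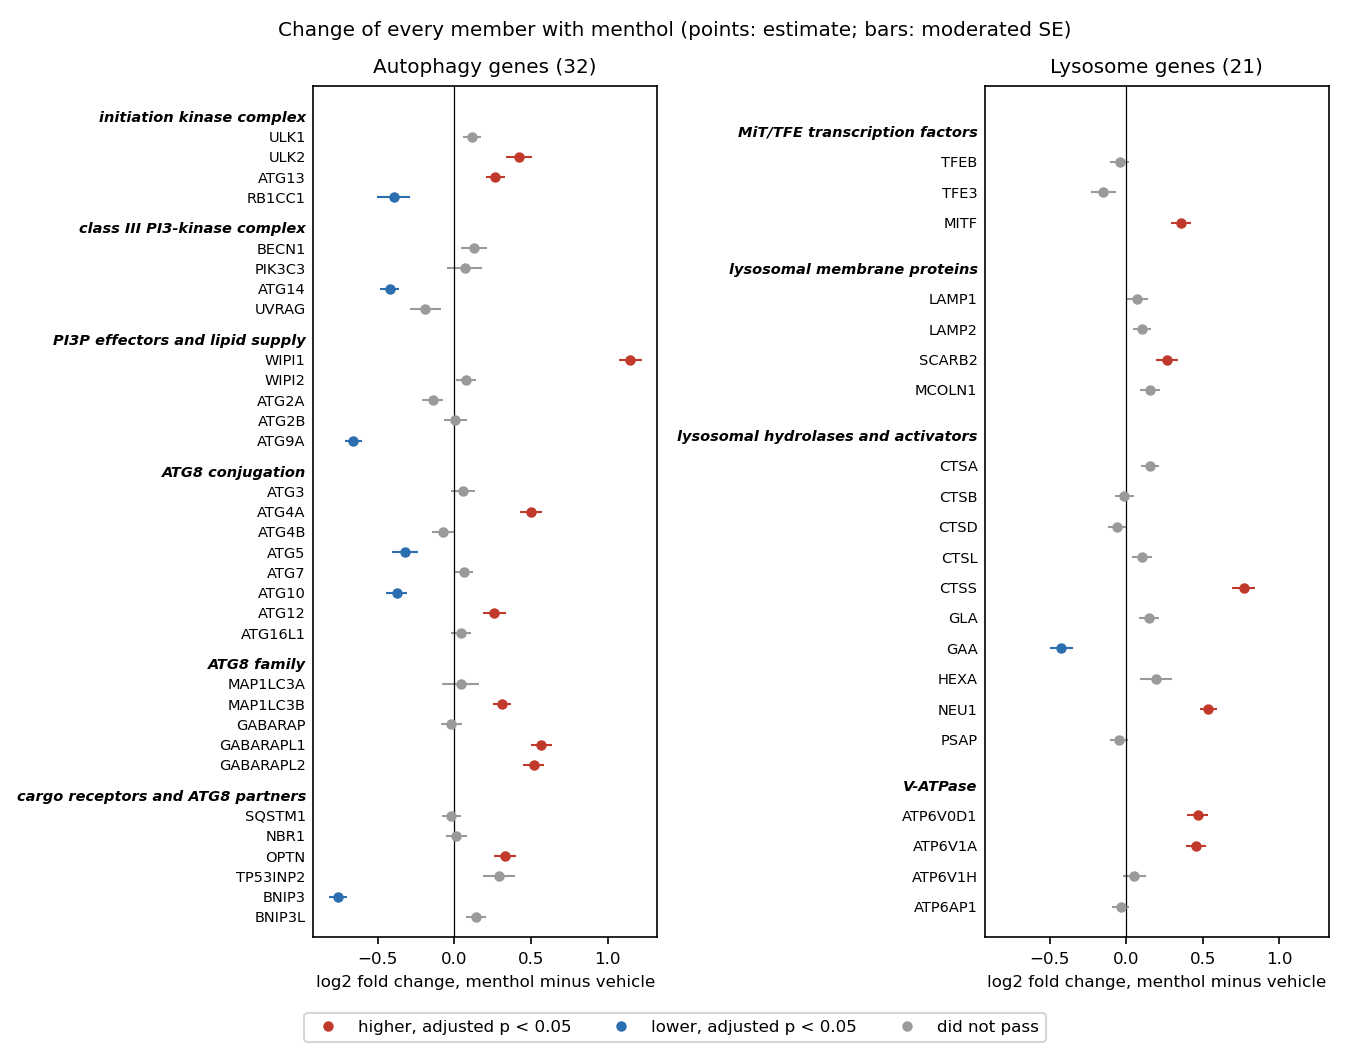
Log2 fold change of each of the 53 genes (x axis, menthol minus vehicle, 3 arrays a group), grouped by role, with the moderated standard error as a bar. WIPI1 stands farthest to the right at 1.15 and BNIP3 farthest to the left at -0.76; red and blue points passed the threshold.

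The arrays of a group lay close together. The median SD between replicates was 0.05 with vehicle and 0.07 with menthol over the members, on the log2 scale, against 0.08 and 0.10 over all genes. PC-3 cells are epithelial, and all 6 epithelial markers examined (KRT8, KRT18, KRT19, EPCAM, CDH1 and CLDN7) rose with menthol. Their summed intensity was 6478 to 6841 with vehicle and 11020 to 11377 with menthol. Of 8 macrophage and leukocyte markers 1 rose in limma and 0 fell, even at an unadjusted p under 0.05. It was CD68, itself a lysosomal membrane protein, with a log2 rise of 0.29 ± 0.07 (SE, 3 arrays a group). The list summed to 664 to 730 with vehicle and 773 to 847 with menthol, and the pan-leukocyte gene PTPRC was at the 2.96th percentile of all genes. Of 6 endothelial markers 3 rose and 0 fell by either measure (summed intensity 201 to 210 with vehicle, 311 to 330 with menthol). Of 6 fibroblast markers 2 rose and 1 fell, with 2 lower at an unadjusted p under 0.05 in limma. The fibroblast list summed to 393 to 415 with vehicle and 342 to 370 with menthol. DCN, which rose, was at the 1.95th percentile of all genes. The prostate secretory genes KLK2 and KLK3, the 2 of 6 luminal markers that were measured, did not pass. No marker was at 0 in any array. The part of these shifts in the results on autophagy and lysosome genes was not tested.

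Promoter sequence was examined because the lysosome genes are known targets of the MiT/TFE factors. RefSeq promoter windows (GRCh38.p14, 250 bases before to 50 after the start, 300 bases in all) were found for 42 of the 53 members, 28 autophagy and 14 lysosome genes. They were searched for the E-box CACGTG, which other factors of the same DNA-binding class such as MYC and USF also recognise, and for the core of the CLEAR element, TCACGTGA, which contains the E-box. Both motifs read the same on either strand. The E-box was present in 7 of 14 lysosome genes (50.0%) and 3 of 28 autophagy genes (10.7%), against 10.9% of the 14230 measured genes with a window. The CLEAR core was present in 5 lysosome genes (35.7%) and 1 autophagy gene (3.57%), against 1.71% of measured genes. The share was lower in the other lysosome genes described further on. The E-box and the CLEAR core were present in 14.3% and 4.76% of 21 other lysosomal hydrolases and activators with a window, in 22.2% and 11.1% of 9 other V-ATPase subunits, and in 33.3% and 16.7% of 18 other lysosomal membrane and transport genes. They were present in 8.70% and 4.35% of 23 other autophagy genes and in 22.2% and 7.41% of 27 genes of mTORC1 and lysosomal nutrient sensing. The 50.0% thus describes these 14 genes and not lysosome genes in general. Among the 14 are TFEB, TFE3 and MITF, whose windows held no E-box. Over all 35093 windows the shares were 7.26% and 0.98%. Base composition differs between the sets: the median GC content was 68.8% in the lysosome genes, 65.2% in the autophagy genes and 62.7% in all measured genes. A gene with several windows was counted when any of them held the motif, which concerned 8 members.

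The 5 windows that follow are picked examples, with each E-box in capitals. They do not show how motif and change relate over the members, whose counts come after them. WIPI1 (chr17:68457447-68457746, minus strand) and GABARAPL1 (chr12:10212627-10212926, plus strand) are the markers of the group, and neither window holds an E-box. ATP6V0D1 (chr16:67481108-67481407, minus strand) rose and has 1 CLEAR core, whose first base lies 60 bases before the start. GAA (chr17:80101331-80101630, plus strand) fell and has 2, whose first bases lie 77 and 32 bases before the start. LAMP1 (chr13:113296989-113297288, plus strand) did not pass the threshold and has 6 E-boxes, 2 of them within a CLEAR core. MCOLN1, with 2 CLEAR cores, was wholly higher with menthol without passing, and its window is not printed.
WIPI1: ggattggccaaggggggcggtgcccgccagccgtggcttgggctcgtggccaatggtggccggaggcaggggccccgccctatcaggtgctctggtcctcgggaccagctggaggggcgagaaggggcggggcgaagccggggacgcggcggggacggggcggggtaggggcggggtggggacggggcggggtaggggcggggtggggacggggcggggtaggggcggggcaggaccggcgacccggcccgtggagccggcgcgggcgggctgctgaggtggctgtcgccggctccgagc
GABARAPL1: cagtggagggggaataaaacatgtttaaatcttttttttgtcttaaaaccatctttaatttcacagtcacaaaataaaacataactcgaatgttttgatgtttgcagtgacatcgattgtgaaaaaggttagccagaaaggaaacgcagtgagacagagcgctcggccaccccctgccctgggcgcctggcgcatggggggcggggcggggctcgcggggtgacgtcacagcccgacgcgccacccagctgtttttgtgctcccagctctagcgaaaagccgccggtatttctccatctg
ATP6V0D1: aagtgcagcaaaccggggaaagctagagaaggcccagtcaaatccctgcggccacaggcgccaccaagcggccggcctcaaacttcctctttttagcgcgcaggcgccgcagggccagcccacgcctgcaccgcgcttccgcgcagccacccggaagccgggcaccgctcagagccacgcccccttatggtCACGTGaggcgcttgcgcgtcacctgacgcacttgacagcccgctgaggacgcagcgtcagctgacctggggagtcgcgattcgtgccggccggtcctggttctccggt
GAA: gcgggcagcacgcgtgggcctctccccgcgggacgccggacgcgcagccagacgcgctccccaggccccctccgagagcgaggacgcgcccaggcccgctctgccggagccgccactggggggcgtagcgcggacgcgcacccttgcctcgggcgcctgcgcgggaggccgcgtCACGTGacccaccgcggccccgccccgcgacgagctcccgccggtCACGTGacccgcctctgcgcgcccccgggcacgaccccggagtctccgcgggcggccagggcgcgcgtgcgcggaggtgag
LAMP1: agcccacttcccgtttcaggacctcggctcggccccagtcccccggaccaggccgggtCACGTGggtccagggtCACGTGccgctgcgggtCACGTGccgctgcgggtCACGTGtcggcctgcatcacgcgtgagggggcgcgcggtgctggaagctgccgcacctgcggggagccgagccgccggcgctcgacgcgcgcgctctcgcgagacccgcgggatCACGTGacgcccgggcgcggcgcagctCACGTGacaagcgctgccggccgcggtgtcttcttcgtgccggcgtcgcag

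E-boxes were found among members that rose, that fell and that did not pass. Of the 13 members that rose and had a window, 2 held an E-box, ATP6V0D1 and NEU1. Of the 6 that fell and had a window, 3 held one, ATG14, BNIP3 and GAA. Of the 23 that did not pass and had a window, 5 held one, namely ATG3, CTSA, CTSD, LAMP1 and MCOLN1. CTSS and ATP6V1A, which rose, and RB1CC1, which fell, had no window and were not searched. None of the 9 autophagy genes that rose held an E-box in its window, beside 10.9% of measured genes. With 9 genes this cannot be told from that share. No match says only that these letters are not in this window, and a match is not evidence of binding.

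**Figure D2:**
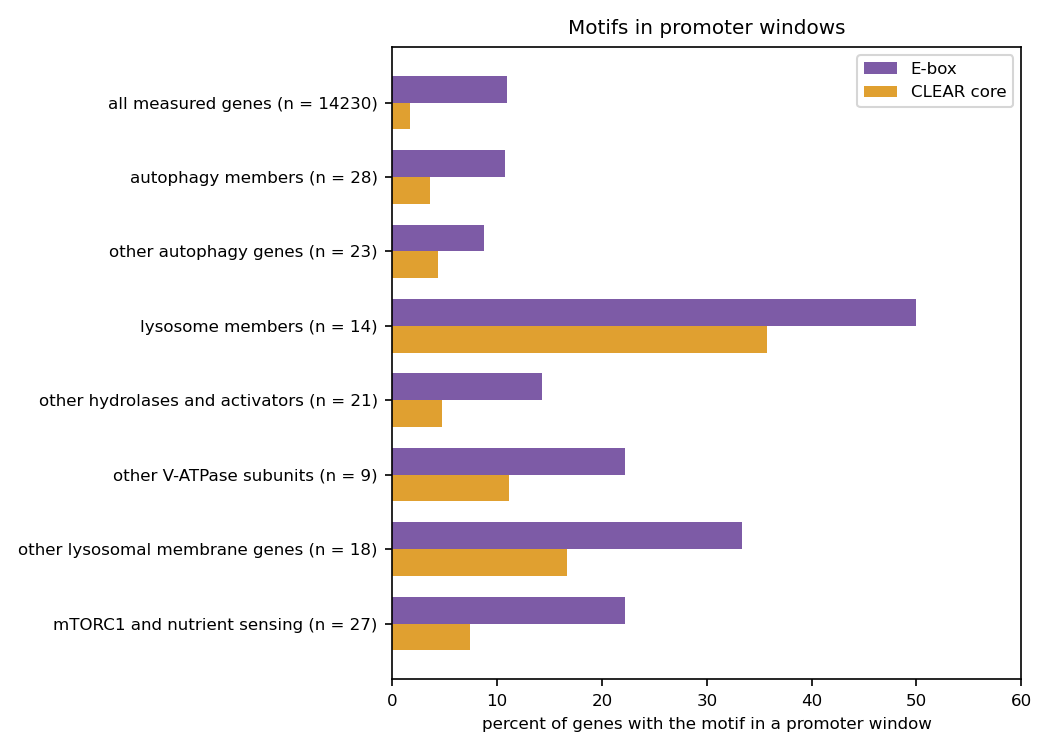
Percent of genes (x axis) with an E-box or a CLEAR core in a RefSeq promoter window, for the measured genes, the autophagy and lysosome members and the further lists of the same pathways (n is the number of genes with a window). The E-box was found in 50.0% of the lysosome members and 10.7% of the autophagy members, against 10.9% of measured genes and 14.3% to 33.3% in the 3 lists of other lysosome genes.

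In the initiation complex, in which the kinases ULK1 and ULK2 work with the scaffold proteins ATG13 and RB1CC1, 2 genes rose and 1 fell. The shares over all genes were 14.6% higher and 14.5% lower. ULK2 read 5.88, 5.85 and 5.90 log2 intensity units in vehicle replicates 1 to 3 and 6.14, 6.31 and 6.45 in menthol replicates 1 to 3. Every menthol array was above every vehicle array, a rise of 0.42 ± 0.09 on the log2 scale (adjusted p = 0.0085 in limma). ULK1, the better known of the kinases, read 7.41, 7.33 and 7.42 with vehicle and 7.51, 7.51 and 7.48 with menthol and did not pass (0.12 ± 0.06, adjusted p = 0.182 in limma). ATG13 read 8.47, 8.49 and 8.51 against 8.68, 8.78 and 8.81, a rise of 0.27 ± 0.06 (adjusted p = 0.0161 in limma). The rise of ATG13 is close to the threshold: its adjusted p was 0.0598 without vehicle replicate 1, 0.0532 without vehicle replicate 2 and 0.0538 without menthol replicate 2.

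RB1CC1, also called FIP200, went the other way. It read 7.94, 7.92 and 8.08 with vehicle and 7.36, 7.62 and 7.76 with menthol, and fell by 0.40 ± 0.11 (adjusted p = 0.0266 in limma). The menthol arrays were spread over a wider range than the vehicle arrays but all lay below them. The call was lost without vehicle replicate 1 (adjusted p = 0.0603), 2 (0.0509) or 3 (0.0859) and without menthol replicate 2 (0.0573).

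The lipid kinase complex holds PIK3C3, the catalytic subunit, and BECN1, together with either ATG14, which directs it to the site where autophagosomes form, or UVRAG, which serves the endosome. Of these 4 genes 0 rose, also at an unadjusted p under 0.05 in limma, and 1 fell. Among all genes 14.6% rose and 14.5% fell. ATG14 read 10.03, 9.91 and 9.91 with vehicle and 9.50, 9.54 and 9.53 with menthol. The groups were separated by more than the range of either, and ATG14 fell by 0.42 ± 0.06 (adjusted p = 0.00235 in limma). BECN1 (0.13 ± 0.08) and PIK3C3 (0.07 ± 0.11) overlapped between the groups. UVRAG stood at -0.19 ± 0.10 with all menthol arrays lower, and did not pass (adjusted p = 0.197 in limma).

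Downstream of the lipid mark, WIPI1 and WIPI2 bind phosphatidylinositol 3-phosphate, ATG2A and ATG2B carry lipids to the growing membrane, and ATG9A is a membrane-spanning lipid scramblase on the vesicles that seed it. The largest rise and the second largest fall among all the members were both in this set. WIPI1 read 7.41, 7.27 and 7.48 with vehicle and 8.47, 8.60 and 8.53 with menthol, which is 2.21-fold higher (1.15 ± 0.08, adjusted p = 7.85e-05 in limma). ATG9A read 8.55, 8.56 and 8.54 with vehicle and 7.89, 7.90 and 7.89 with menthol, 1.58-fold lower (-0.66 ± 0.06, adjusted p = 0.000206 in limma). Replicates of ATG9A were nearly identical within each group. The paralogue WIPI2 did not pass (0.08 ± 0.06, adjusted p = 0.422 in limma), nor did ATG2A (-0.14 ± 0.07) or ATG2B (0.00 ± 0.07). ATG2A was lower in every menthol array, while WIPI2 and ATG2B overlapped between the groups. ATG2B has another, dimmer probeset that read 6.64, 6.64 and 6.79 with vehicle and 6.37, 6.50 and 6.57 with menthol, lower in every menthol array, so its probesets differ. The mean of both did not pass either (-0.10, adjusted p = 0.347 in limma).

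Of the 8 genes that attach ATG8 proteins to lipid, 2 rose and 2 fell, beside 14.6% and 14.5% of all genes. ATG4A, a protease that trims and later releases ATG8 proteins, read 8.29, 8.32 and 8.37 with vehicle and 8.73, 8.81 and 8.94 with menthol, a rise of 0.50 ± 0.07 (adjusted p = 0.00206 in limma). ATG12, the ubiquitin-like protein joined to ATG5, read 7.25, 7.21 and 7.29 against 7.38, 7.54 and 7.60 and rose by 0.26 ± 0.07 (adjusted p = 0.0349 in limma). ATG12 did not pass without vehicle replicate 1 (adjusted p = 0.0915), 2 (0.107) or 3 (0.0647), nor without menthol replicate 2 (0.0992) or 3 (0.0875).

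Of the genes that act with ATG12, ATG10 and ATG5 were lower. ATG10, the E2-like enzyme that joins ATG12 to ATG5, read 8.17, 8.29 and 8.33 with vehicle and 7.85, 7.93 and 7.88 with menthol and fell by 0.38 ± 0.07 (adjusted p = 0.00501 in limma). ATG5 itself read 8.54, 8.50 and 8.60 against 8.10, 8.19 and 8.39, lower in every menthol array (-0.32 ± 0.08, adjusted p = 0.0245 in limma). The fall of ATG5 did not pass without vehicle replicate 1 (adjusted p = 0.0669), 2 (0.0520) or 3 (0.0774), nor without menthol replicate 1 (0.0615) or 2 (0.0740). ATG3, the E2-like enzyme of the ATG8 branch, overlapped between the groups. So did ATG7, the E1-like enzyme of both the ATG12 and ATG8 branches, ATG16L1 and ATG4B. ATG4B has another probeset, not used because it is dimmer, that read 5.32, 5.94 and 4.48 with vehicle and 6.20, 7.68 and 6.87 with menthol. Its arrays within a group differed by far more than those of the probeset used (SD 0.73 and 0.74 against 0.07 and 0.10).

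Of the 5 ATG8 family genes 3 rose and 0 fell, beside 14.6% and 14.5% of all genes. GABARAPL1 read 5.96, 6.04 and 5.87 with vehicle and 6.58, 6.52 and 6.48 with menthol, a rise of 0.57 ± 0.07 (1.48-fold, adjusted p = 0.000935 in limma). GABARAPL2, also known as GATE-16, read 9.36, 9.37 and 9.46 with vehicle and 9.86, 10.00 and 9.88 with menthol and rose by 0.52 ± 0.07 (1.43-fold, adjusted p = 0.00136 in limma). MAP1LC3B, whose product LC3B is the usual laboratory marker of autophagosomes, read 5.68, 5.64 and 5.67 against 6.02, 5.94 and 5.96, a rise of 0.31 ± 0.06 (adjusted p = 0.00633 in limma).

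In each of these 3 genes the groups did not overlap, and 0 of the 5 were lower at an unadjusted p under 0.05 in limma as well. GABARAP (-0.02 ± 0.07, adjusted p = 0.851 in limma) and MAP1LC3A (0.04 ± 0.12, adjusted p = 0.836 in limma) overlapped between the groups. Near-identical copies make some of these values uncertain. GABARAPL3, a copy of GABARAPL1 with a probeset of its own, did not pass (0.06 ± 0.11, adjusted p = 0.698 in limma), and a further probeset shared by MAP1LC3B and MAP1LC3B2 was not used.

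Among the cargo receptors and ATG8-binding proteins, 1 of 6 rose and 1 fell, beside 14.6% and 14.5% of all genes. OPTN, a receptor for mitochondria and bacteria, read 7.49, 7.68 and 7.68 with vehicle and 7.94, 7.97 and 7.94 with menthol, a rise of 0.33 ± 0.07 (adjusted p = 0.0115 in limma). BNIP3, a mitochondrial receptor whose gene is a classical target of hypoxia-inducible factor, read 10.79, 10.76 and 10.85 with vehicle and 10.01, 10.03 and 10.08 with menthol. This was the largest fall among the members, 1.69-fold (-0.76 ± 0.06, adjusted p = 0.000162 in limma). Its relative BNIP3L was at 0.14 ± 0.07 with every menthol array higher, and did not pass (adjusted p = 0.151 in limma). BNIP3L did pass as higher under quantile normalization (0.0378), cyclic loess normalization (0.0375) and the trended prior (0.0351).

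SQSTM1, or p62, the best known receptor and itself degraded by autophagy as a protein, read 10.47, 10.56 and 10.51 with vehicle and 10.46, 10.55 and 10.46 with menthol (-0.02 ± 0.06, adjusted p = 0.825 in limma). NBR1, a related receptor, also overlapped (0.01 ± 0.07). TP53INP2, which carries LC3 out of the nucleus, was wholly higher with menthol at 0.29 ± 0.11 but did not pass (adjusted p = 0.0754 in limma), except without vehicle replicate 2 (0.0384), with log2(value + 16) (0.0437), with genes of a mean log2 of at least 5 only (0.0418) and with the trended prior (0.0307).

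**Figure D3:**
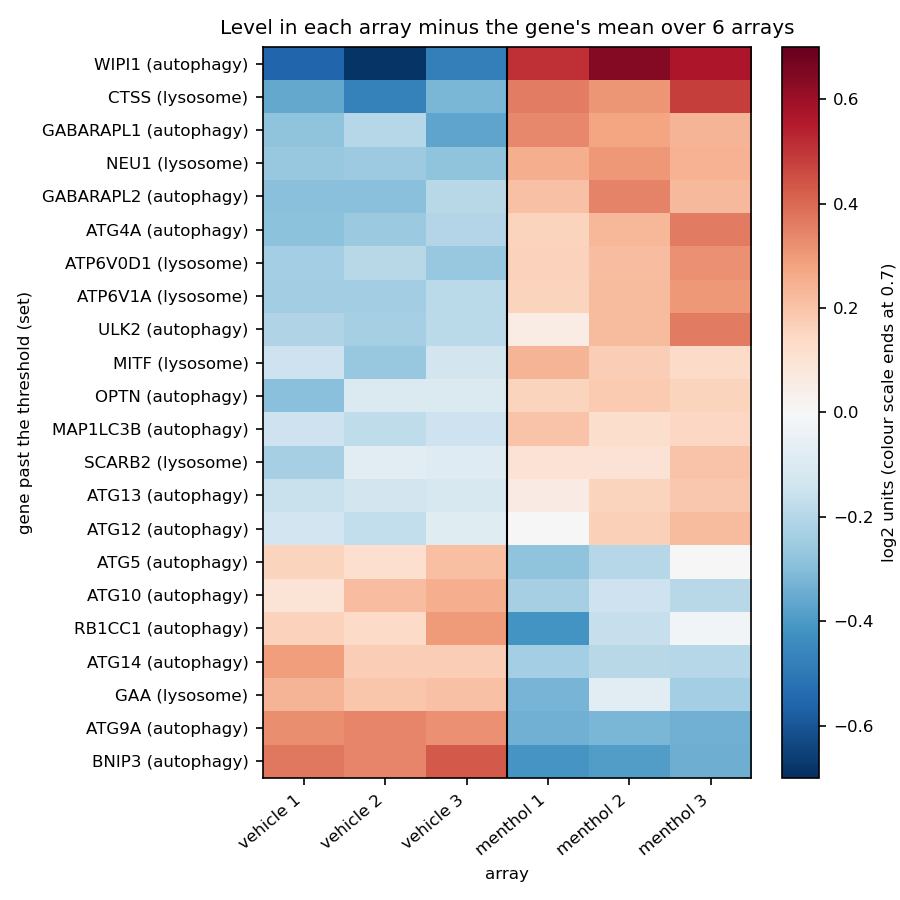
Level of the 22 members that passed, in each array, minus the gene's mean over the 6 arrays (colour, log2 units), ordered by fold change. The 15 upper genes are higher in all menthol arrays than in any vehicle array, and the 7 lower genes the reverse; ATG5, RB1CC1 and ATG12 each have a menthol array close to the gene's mean.

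Of the MiT/TFE factor genes, MITF rose and TFEB and TFE3 did not pass. MITF, best known from pigment cells, read 6.49, 6.37 and 6.50 with vehicle and 6.87, 6.80 and 6.77 with menthol (0.36 ± 0.07, adjusted p = 0.00597 in limma). TFEB read 5.54, 5.50 and 5.41 against 5.48, 5.44 and 5.40 (-0.04 ± 0.06, adjusted p = 0.655 in limma). The TFEB probeset is rather dim, at the 35.4th percentile of all genes. TFE3 read 8.54, 8.61 and 8.58 against 8.36, 8.34 and 8.58, with menthol replicate 3 at the vehicle level and the others below it. It did not pass (-0.15 ± 0.08, adjusted p = 0.2 in limma), but did as lower without menthol replicate 3 (adjusted p = 0.0428), which made 2 lysosome genes lower in place of 1. The arrays measure mRNA and say nothing of where these proteins were in the cell.

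Of 4 lysosomal membrane proteins 1 rose, beside 14.6% of all genes. SCARB2, which carries glucocerebrosidase to the lysosome, read 8.63, 8.79 and 8.77 with vehicle and 8.96, 8.96 and 9.06 with menthol (0.27 ± 0.07, adjusted p = 0.0246 in limma). The rise of SCARB2 did not pass without vehicle replicate 1 (adjusted p = 0.0860), menthol replicate 2 (0.0527) or menthol replicate 3 (0.0644). LAMP1, a major glycoprotein of the lysosomal membrane, read 8.96, 8.97 and 9.02 against 9.17, 9.04 and 8.95, so the groups overlapped (0.07 ± 0.07, adjusted p = 0.523 in limma). LAMP2 (0.10 ± 0.06) and MCOLN1, the calcium channel of the lysosome (0.16 ± 0.06), were wholly higher with menthol without passing. MCOLN1 passed with the trended prior (adjusted p = 0.0431).

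Among 10 hydrolases and their activators 2 rose and 1 fell (20% and 10%), near the 14.6% and 14.5% of all genes. CTSS, a cysteine protease prominent in antigen-presenting cells, read 5.00, 4.89 and 5.04 with vehicle and 5.72, 5.67 and 5.84 with menthol, 1.70-fold higher (0.77 ± 0.07, adjusted p = 0.000355 in limma). The CTSS probeset is rather dim, at the 33.9th percentile of all genes. Its log2 rise ran from 0.55 to 0.80 over the alternative settings. These include a constant added before log2 was taken and the omission of single arrays, so the range does not describe processing alone. NEU1, the lysosomal sialidase, read 9.11, 9.12 and 9.09 with vehicle and 9.63, 9.68 and 9.62 with menthol, a rise of 0.54 ± 0.06 (1.45-fold, adjusted p = 0.000548 in limma). GAA, which digests glycogen in the lysosome, read 7.75, 7.70 and 7.71 against 7.19, 7.43 and 7.27 and fell by 0.42 ± 0.08 (adjusted p = 0.00532 in limma).

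The other 7 did not pass. CTSA, which holds NEU1 in a stable complex, came closest at 0.15 ± 0.06 with every menthol array higher (adjusted p = 0.0946 in limma). CTSA passed under quantile normalization (0.0408), cyclic loess normalization (0.0336), log2(value + 16) (0.0459) and the trended prior (0.00998). The proteases CTSB and CTSD were at -0.01 ± 0.06 and -0.06 ± 0.06, CTSL at 0.10 ± 0.06, the galactosidase GLA at 0.15 ± 0.07 and the saposin precursor PSAP at -0.05 ± 0.06. GLA was also wholly higher with menthol and CTSD wholly lower, while CTSB, CTSL and PSAP overlapped between the groups. HEXA, a hexosaminidase subunit, had a dim probeset, at the 12.2nd percentile of all genes, and its value of 0.19 ± 0.10 rests on that signal.

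In the V-ATPase, ATP6V0D1 and ATP6V1A rose and ATP6V1H and ATP6AP1 did not pass. ATP6V1A, the subunit that hydrolyses ATP, read 10.19, 10.19 and 10.25 with vehicle and 10.59, 10.66 and 10.74 with menthol (0.45 ± 0.06, adjusted p = 0.00196 in limma). ATP6V0D1, which joins the stalk of the pump to its membrane ring, read 8.97, 9.02 and 8.95 against 9.38, 9.43 and 9.53 (0.47 ± 0.07, adjusted p = 0.00189 in limma). Both were higher in all menthol arrays by more than the range of either group. ATP6V1H, a regulatory subunit (0.05 ± 0.07), and ATP6AP1, an accessory subunit (-0.04 ± 0.06), overlapped between the groups.

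**Figure D4:**
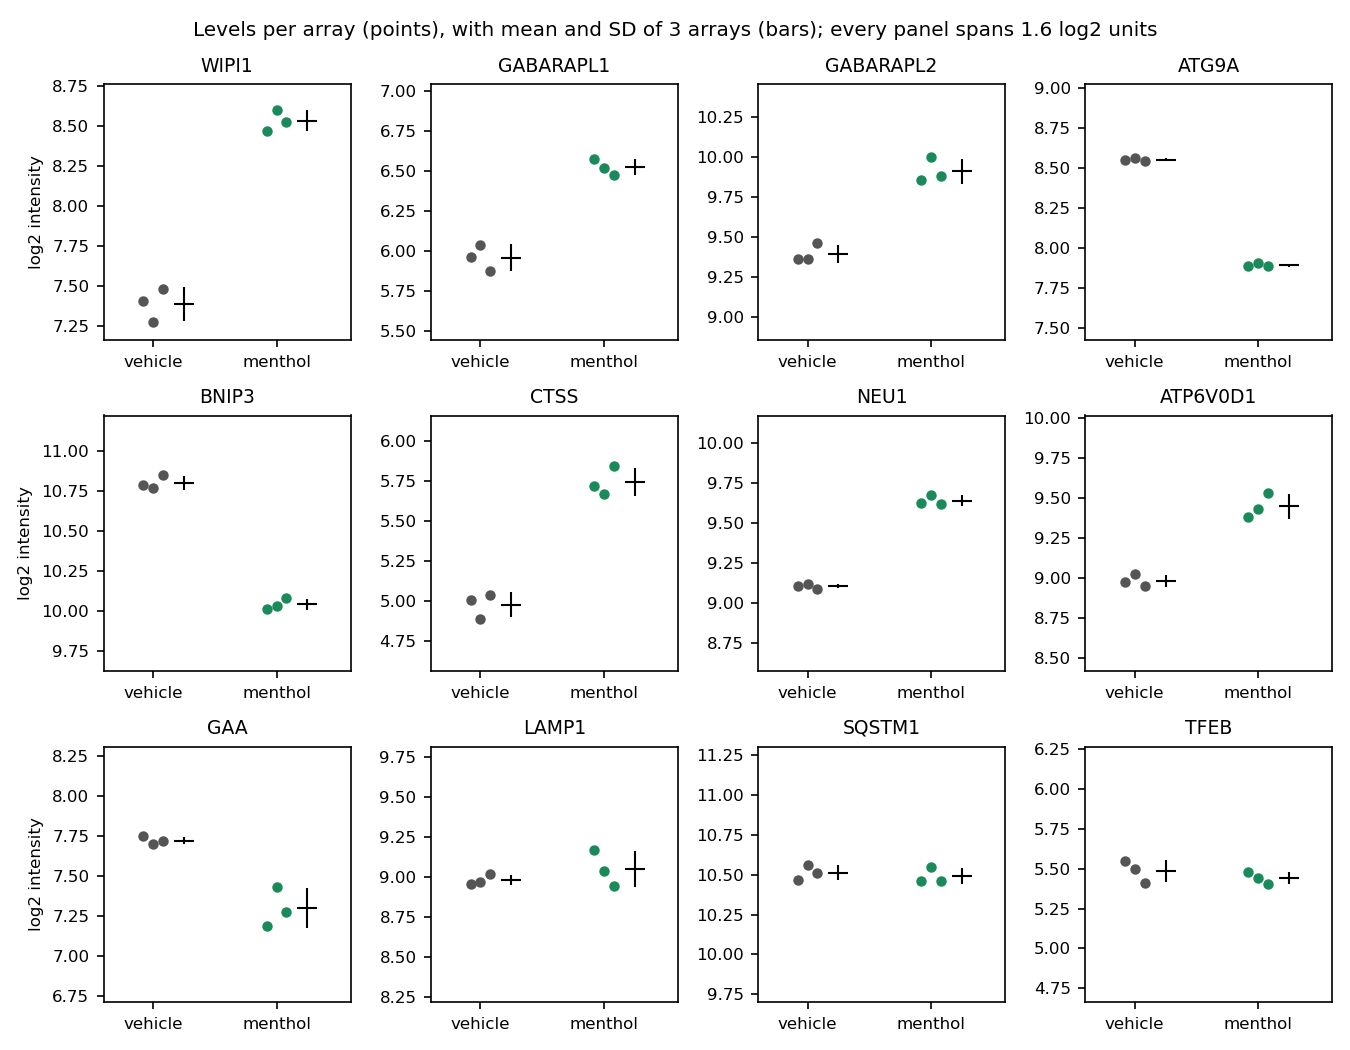
Log2 intensity (y axis) of 12 members in the 3 vehicle and 3 menthol arrays, each point an array, with the mean and SD beside them; each panel covers the same 1.6 log2 units. WIPI1 rises from 7.39 to 8.53 on average, while SQSTM1, TFEB and LAMP1 overlap between the groups.

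Further genes of the same pathways, listed by function, moved mostly upwards among those that passed. Of 121 measured genes on 5 such lists, 39 rose and 4 fell (32.2% and 3.31%, beside 14.6% and 14.5% of all genes). The higher count was 25 without menthol replicate 2 and 26 without vehicle replicate 1 or 2, and 2 genes fell on leaving out vehicle replicate 1, vehicle replicate 3, menthol replicate 1 or menthol replicate 2. Of 28 other autophagy genes 10 rose and 0 fell in limma, 2 being lower at an unadjusted p under 0.05 and 2 by the trended prior, with a median log2 fold change of 0.11. RETREG1, a receptor for turnover of the endoplasmic reticulum, rose by 0.64 ± 0.08, VAMP8, a SNARE of the fusion with lysosomes, by 0.49 ± 0.06 and NRBF2, a subunit of the lipid kinase complex, by 0.37 ± 0.07 (highest adjusted p of the 3 genes 0.00557 in limma). Leaving out vehicle replicate 2, or menthol replicate 2, left 6 of these genes higher.

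Of 29 other lysosomal hydrolases and activators 10 rose and 0 fell, the latter also at an unadjusted p under 0.05 in limma (median 0.12). The shares over all genes were 14.6% and 14.5%. LIPA, the acid lipase that frees cholesterol from its esters, read 9.59, 9.58 and 9.60 with vehicle and 10.52, 10.57 and 10.61 with menthol and was 1.96-fold higher (0.97 ± 0.06, adjusted p = 5.57e-05 in limma). The protease gene CTSO rose by 0.73 ± 0.08 and the acid ceramidase gene ASAH1 by 0.56 ± 0.07. Of 20 other membrane and transport genes 10 rose and 1, LAMP3, fell by 0.24 ± 0.07 (median of the list 0.23). CTNS, the exporter of cystine, rose by 0.82 ± 0.07, the tetraspanin gene CD63 by 0.66 ± 0.06, and GNPTAB, which starts the mannose 6-phosphate tag of the hydrolases, by 0.46 ± 0.10. The membrane list had 6 higher genes when any vehicle array, or menthol replicate 2, was left out. The call on LAMP3 was lost on leaving out any single array.

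Of 12 other V-ATPase subunits 6 rose and 0 fell, the latter also at an unadjusted p under 0.05 in limma (median 0.21). ATP6V1D rose by 0.51 ± 0.07, ATP6V0A2 by 0.38 ± 0.07 and ATP6V1G1 by 0.37 ± 0.07. With the 4 members above, 8 of 16 measured V-ATPase genes rose and 0 fell, beside 14.6% and 14.5% of all genes. The list of mTORC1 and nutrient sensing at the lysosome had even counts: 3 of 32 rose and 3 fell (9.38% each way, median 0.04). RRAGD, a Rag GTPase that recruits mTORC1 to the lysosome, read 7.79, 7.75 and 7.89 with vehicle and 6.62, 6.88 and 6.80 with menthol and was 2.05-fold lower (-1.04 ± 0.08, adjusted p = 0.000184 in limma). DDIT4, a stress-induced inhibitor of mTORC1, fell by 1.07 ± 0.07, and PRKAA2, a catalytic subunit of the energy sensor AMPK, rose by 0.40 ± 0.06. Only 1 gene of this list rose when any vehicle array, or menthol replicate 2 or 3, was left out.

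**Figure D5:**
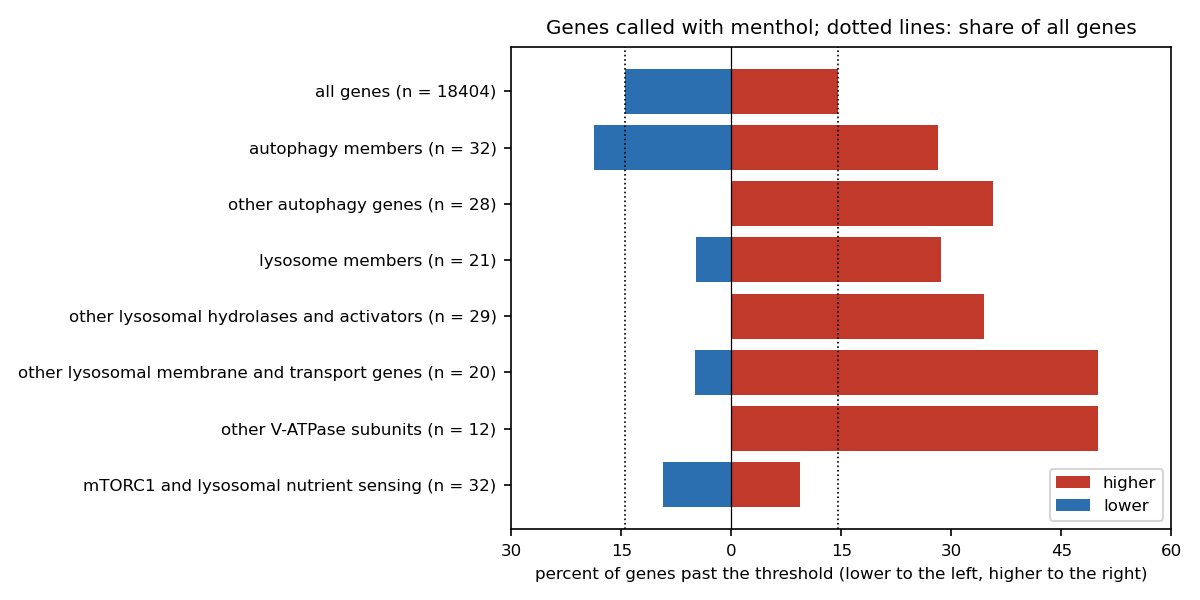
Percent of measured genes (x axis) that passed as higher (right, red) or lower (left, blue) with menthol, for all genes, the autophagy and lysosome members and 5 lists of further genes; dotted lines mark all genes (14.6% and 14.5%). Bars to the right pass the dotted line in every list but mTORC1 and nutrient sensing, at 9.38%.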

How the data were processed

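The authors deposited 1 table of intensity values for 6 arrays (32321 probesets), made from 300 ng of RNA each per the labels' protocols. Per the submitters' processing notes it was made with RMA (background correction, quantile normalization, probeset summary), with no version stated. The deposited intensity values ran from 1.57 to 14835, so they were linear and log2 was taken. Such normalization removes any overall shift between arrays. Array medians were 47.4 to 49.1 intensity units, and precision is limited by the number of arrays.

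Probesets with 1 gene symbol (19158; 1388 had several, 11775 had none here) were named from the platform's annotation. The brightest probeset on average was kept for each of 18404 genes. The comparison of the groups used limma 3.58.1 under R 4.3.3 (group as the single term, two-sided, Benjamini-Hochberg over all genes, threshold 0.05); the fit was tested on simulated data. Values are log2 intensity, and fold changes are menthol minus vehicle with the moderated SE. Whether replicates were separate cultures is not stated; p-values then reflect only the spread between these arrays, which may be technical. With 3 arrays against 3, exact permutation cannot give a p below 0.1. Every member is accounted for, and up to 3 genes with the largest change past the threshold are named from each further list. LAMP3 and CD68 were named after their values were seen. CTSS, the lysosome gene with the largest change, had no promoter window and was not searched. The window of MCOLN1 was searched but is not printed. The members and lists were chosen with earlier results of these data known. Alternatives were other normalizations, log2(value + 16), filters on dim genes (mean log2 of at least 4 or 5), other uses of probesets, array weights, a trended robust prior (with statmod 1.5.0), the replicate block, other thresholds and omission of each array; their use on the further lists was added after seeing the data. Sequences come from RefSeq, GRCh38.p14. Figures were made with Python 3.11.15 and matplotlib 3.10.9.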

Additional observations from a re-analysis of the deposited data

How the results depend on the processing

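All 22 members that passed kept their call and direction under quantile normalization, equal array medians, cyclic loess normalization, log2(value + 16), both filters on dim genes, the mean of all probesets, single probesets (for genes that have 1), the trended robust prior, array weights and the replicate block. At an adjusted p of 0.01, 16 of them passed. Requiring at least 1.5-fold left 1 autophagy gene higher and 2 lower, 1 lysosome gene higher and 0 lower, 5 further pathway genes higher and 2 lower, and 550 of all genes higher and 482 lower. At an adjusted p of 0.01, 1382 of all genes were higher and 1459 lower, and of the further pathway genes 23 were higher and 2 lower. The count of further pathway genes that fell, 4, was 2 under cyclic loess normalization, 7 with log2(value + 16) or with the filter at a mean log2 of 5, and 8 with the trended prior. Averaging probesets turned ATG4B from -0.07 to 0.80 (adjusted p = 0.0264), since its probesets differ. Leaving out single arrays gave 7 to 9 autophagy genes higher and 4 to 6 lower, 5 to 6 lysosome genes higher and 1 to 2 lower, 25 to 38 further genes higher and 2 to 3 lower, and 1950 to 2402 of all genes higher and 1851 to 2472 lower.

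The replicate numbers gave no clear sign of pairing. Deviations of same-numbered arrays correlated at 0.006, -0.007 and 0.091, and not every array correlated best with its own number. Correlations this weak, in values already normalized between arrays, cannot decide whether the arrays were paired. With the replicate block 9 autophagy genes were higher and 6 lower, 6 lysosome genes higher and 1 lower, 33 further genes higher and 3 lower, and 2483 of all genes higher and 2385 lower. The limits are 3 arrays a group, a linear table already normalized between arrays, unknown dose and time, and mRNA as the only readout.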
